A study of Arabidopsis thaliana with 4 samples.

Results

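Transcripts of 4 plastid genes that encode large core subunits of the photosystems, psaA of photosystem I and psbB, psbC and psbD of photosystem II, were described on 4 Affymetrix ATH1 arrays. The members were the probe sets that name 1 gene in the platform annotation, lie on the plastid genome in RefSeq and carry 1 of these 4 symbols. Each gene had 1 such probe set, so 4 of the 22810 probe sets of the array, and 4 of the 69 that name 1 plastid gene, were members. RNA came from rosette leaves of Arabidopsis thaliana, accession Col-0, at 3 weeks. KO-nudx19 plants, which lack the NADPH-cleaving Nudix hydrolase NUDX19, gave 2 arrays and wild-type plants gave 2. Both genotypes grew on MS medium (3% sucrose) in the first week and on soil in the 2 weeks that followed, under a cycle of 16 h of light (100 µmol per square metre and second, 25°C) and 8 h of darkness (22°C). The sources used here do not say which mutant allele KO-nudx19 carries or whether replicates 1 and 2 came from separately grown plants, so each p-value reflects only array-to-array spread, possibly technical.

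Photosystem II takes electrons from water and photosystem I passes them on towards NADP+, the precursor of the NADPH that NUDX19 cleaves. PsaA, the product of psaA, pairs with PsaB to hold the special chlorophylls of photosystem I. The product of psbD is the D2 protein, which with D1, the product of psbA, forms the reaction centre of photosystem II. The products of psbC and psbB are CP43 and CP47, the inner antenna proteins that bind chlorophyll beside that centre. Chloroplast genes are transcribed in groups: psaA lies with psaB and rps14, psbD with psbC (the ends of these genes overlap) and psbZ, and psbB with psbT, psbH, petB and petD. Transcripts of chloroplasts mostly lack the long poly(A) tails of nuclear transcripts, and the labels do not say how reverse transcription was primed.

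The deposited value is a linear signal intensity, scaled so that the trimmed mean of each array was 200, and the number of arrays limits the precision. Signals are compared below between arrays for the same probe set. Where probe sets are set beside each other, their change between arrays is read, not which of them is brighter. NUDX19 had no named probe set, so the genotype labels were not checked against the targeted gene. RCA, which encodes Rubisco activase and was the 1 of 5 Rubisco-related leaf markers with a named probe set, had 14928 and 19541 in KO-nudx19 leaves and 11113 and 13711 in wild-type leaves. EXPA7, a root hair gene and the 1 root marker with a named probe set, stayed at or below 6.28 on every array. The flower markers had no named probe set, and FAMA of guard cells lay between 77.5 and 85.8. Spiked poly(A) controls, 24 probe sets for bacterial transcripts, had a geometric mean of 98.2 and 21.0 on KO-nudx19 replicates 1 and 2, and of 116 and 19.9 on wild type replicates 1 and 2, so the arrays parted by replicate number. Same-numbered arrays also deviated together from their genotype means (correlation 0.553 across 13648 probe sets, which are not independent). The replicate number was therefore regarded as a batch seen in the data, and for the members each difference between the genotypes is also given within it. The pooled limma fits between the genotypes had no term for this number. Their standard errors and intervals thus include the spread between the numbers, and a fit with the number as a block is given at the end. The fit used 13648 probe sets that were not dim, among them all 4 members.

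No member passed limma's test between KO-nudx19 and wild-type leaves, and the arrays of both genotypes overlapped for all 4. The photosystem II genes psbB, psbC and psbD were lowest on 1 wild-type array, replicate 2, whereas psaA was lowest on KO-nudx19 replicate 2. All 4 were highest on wild type replicate 1, as were 28.5% of all tested probe sets. The genes thus shared the array where they were brightest but not the array where they were dimmest. For psaA the latter rests on dim signals, 37.1 on KO-nudx19 replicate 2 against 55.6 on wild type replicate 2. KO-nudx19 replicate 2 gave the minimum for 29.0% of all tested probe sets, and the wild-type array of that number for 26.4%.

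For psaA (probe set 245007_at, RefSeq locus ArthCp022), the signal was 247 and 37.1 on KO-nudx19 replicates 1 and 2, and 471 and 55.6 on wild type replicates 1 and 2. Both replicate 2 arrays were low, and the genotypes overlapped. Within each replicate number the KO-nudx19 array lay below the wild-type array, with log2 differences of −0.93 between the replicate 1 arrays and −0.58 between the replicate 2 arrays. The pooled log2 difference was −0.76 (SE 1.22, n = 2 per genotype, limma adjusted p = 1.00), with a 95% confidence interval from −3.76 to 2.25. The signal of 37.1 lies close to the 40th percentile of all values (37.1), so the lowest psaA values are dim ones. Detection calls were not used here.

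CP47, encoded by psbB (244972_at, ArthCp049), showed the widest spread of the 4. Its transcript had a signal of 750 and 424 on KO-nudx19 replicates 1 and 2, and of 1874 and 56.3 on wild type replicates 1 and 2. The KO-nudx19 arrays lay between the 2 wild-type arrays, which were 33.3-fold apart. The log2 difference between the genotypes was −1.32 between the replicate 1 arrays and 2.91 between the replicate 2 arrays. Pooled it was 0.79 (SE 1.50, limma adjusted p = 1.00), with an interval from −2.89 to 4.48.

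The CP43 gene psbC (245003_at, ArthCp018) had 6347 and 6767 on KO-nudx19 replicates 1 and 2, and 7128 and 487 on wild type replicates 1 and 2. Of its 4 values, 3 lay within 1.12-fold of each other, and wild type replicate 2 stood 13.9-fold below the KO-nudx19 array of the same number. The log2 difference was −0.17 between the replicate 1 arrays and 3.80 between the replicate 2 arrays. The pooled value of 1.82 (SE 1.15, limma adjusted p = 1.00, interval −0.996 to 4.63) turned to −0.12 without wild type replicate 2. Without wild type replicate 1 it was 3.75 and passed (limma adjusted p = 0.0234), so the call depended on which wild-type array was kept. That fit has a single wild-type array, assumed to vary like the others, so its spread comes from the 2 nearly equal KO-nudx19 values of psbC and from the other probe sets and holds none between wild-type arrays.

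The D2 gene psbD (245002_at, ArthCp017) had 918 and 351 on KO-nudx19 replicates 1 and 2, and 1422 and 97.5 on wild type replicates 1 and 2. Its order over the arrays was that of psbB, with the KO-nudx19 values between both wild-type values. The log2 difference was −0.63 between the replicate 1 arrays and 1.85 between the replicate 2 arrays, and 0.61 pooled (SE 1.21, limma adjusted p = 1.00, interval −2.37 to 3.59). Without wild type replicate 2 the pooled log2 difference was −1.32 for psbD, −1.73 for psbB and −2.30 for psaA, and none of these passed.

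**Figure D1:**
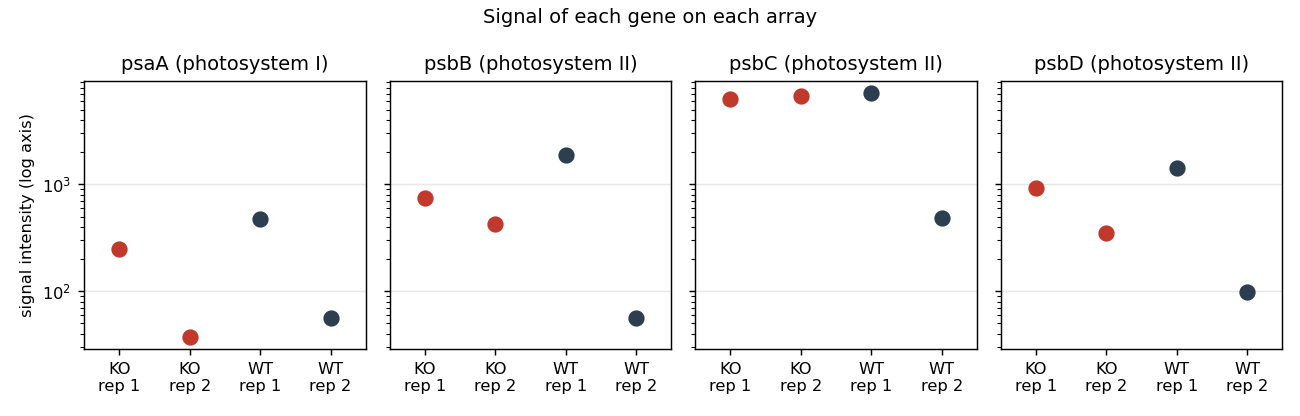
Signal intensity on a log axis for each gene on the 4 arrays, 1 point per array, with KO-nudx19 (KO) left of wild type (WT). All genes are highest on wild type replicate 1, and psbB, psbC and psbD are lowest on wild type replicate 2 at 56.3, 487 and 97.5, while psaA is lowest on KO-nudx19 replicate 2 at 37.1.

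Over all 13648 probe sets, limma called 0 (0%) between the genotypes at an adjusted p of 0.05, with 89 at an unadjusted p under 0.05, and 22.3% did not overlap between the genotypes, against 0 of the 4 members. The pooled log2 difference was positive for 3 members and negative for 1 (median 0.70), while the median over all tested probe sets was −0.00029. Without wild type replicate 2 the median of the members was −1.53, and without wild type replicate 1 it was 2.93. Between the replicate 1 arrays the difference was below 0 for all 4 members, with a median of −0.78. Between the replicate 2 arrays it was above 0 for 3, with a median of 2.38. A sign that differed between the numbers, seen for psbB, psbC and psbD, was also seen for 50.8% of all tested probe sets.

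**Figure D2:**
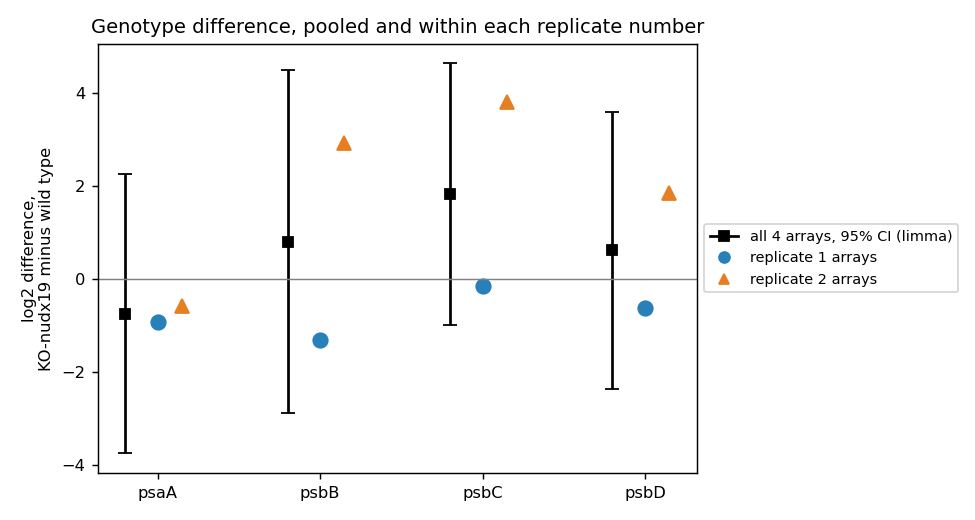
Log2 difference of KO-nudx19 minus wild type for each gene from all 4 arrays (squares, with the 95% confidence interval from limma), from the replicate 1 arrays (circles) and from the replicate 2 arrays (triangles). Every interval spans 0, and the difference changes sign between the numbers for psbB, psbC and psbD but stays below 0 for psaA, at −0.93 and −0.58.

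The pooled difference between the replicate numbers exceeded that between the genotypes in size for all 4 genes, barely so for psbC, and psaA showed it alike in both genotypes. In a limma fit with genotype as a term, the replicate 2 arrays were lower than the replicate 1 arrays by a log2 difference of −2.91 for psaA (SE 0.25, adjusted p = 4.5e-07), −2.94 for psbB (SE 0.53, adjusted p = 7.8e-04), −2.63 for psbD (SE 0.36, adjusted p = 4.5e-05) and −1.89 for psbC (SE 0.48, adjusted p = 0.0130). All 4 members were thus called lower. Of the 65 tested plastid-encoded probe sets, the members among them, 33 were called lower and 1 higher. Of all tested probe sets, 6.32% were called lower and 4.93% higher. For psaA the log2 difference was −2.74 in KO-nudx19 leaves and −3.08 in wild-type leaves. For psbB it was −0.82 in KO-nudx19 leaves and −5.06 in wild-type leaves. For psbD it was −1.39 in KO-nudx19 leaves and −3.87 in wild-type leaves. For psbC it was 0.09 in KO-nudx19 leaves and −3.87 in wild-type leaves, so its call came from the wild-type pair. Whether these differences differ between the genotypes was not tested, since 1 array per genotype and number leaves no spread to test against.

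These calls rest on a spread shared over probe sets. With robust fitting, which lets single probe sets keep a wider spread, the adjusted p was 0.604 for psbB, 0.468 for psbD and 0.706 for psbC, none of which passed, while psaA still passed. Without the filter on dim probe sets none of the 4 passed, with adjusted p from 0.410 (psaA) to 0.617 (psbC). The poly(A) controls were lower on both replicate 2 arrays than on either replicate 1 array, as were psaA, psbB and psbD. For psbC this held only on wild type replicate 2. The ratio of 3′ to 5′ actin signal, which rises as RNA degrades, was 2.92 and 5.17 on KO-nudx19 replicates 1 and 2, against 2.30 and 4.27 on wild type replicates 1 and 2. The same ratio of GAPDH was 0.986 and 1.38 on KO-nudx19 replicates 1 and 2, against 1.01 and 1.15 on wild type replicates 1 and 2. That of ubiquitin was 1.48 and 1.95 on KO-nudx19 replicates 1 and 2, against 1.53 and 1.44 on wild type replicates 1 and 2, so the 3 ratios did not all move with the number in wild type. The 25S ribosomal RNA probe set had 971 and 856 on KO-nudx19 replicates 1 and 2, and 1781 and 748 on wild type replicates 1 and 2, with its highest signal on the array where all 4 members were highest and its lowest where the photosystem II members were lowest. The part of these measures in the result was not tested. In RNA from whole leaves, fewer cells of a type and less RNA per cell cannot be told apart. RCA and all 7 tested nuclear photosystem and antenna genes were higher on wild type replicate 2 than on wild type replicate 1. The same held for 6281 of all 13648 tested probe sets. RCA and these 7 genes, except LHCB4.3, are bright. The highest signal of any probe set also differed, at 15310.5 on wild type replicate 1 and 19383.3 on wild type replicate 2. All 4 members were lower on wild type replicate 2 than on wild type replicate 1. The cause of these differences was not tested.

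Wild type replicate 1 was at least 4-fold above wild type replicate 2 for all 4 members, at 8.47-fold for psaA, 33.3-fold for psbB, 14.7-fold for psbC and 14.6-fold for psbD. This held for 0.85% of all tested probe sets and for 35 of the 65 tested plastid-encoded ones. Between the KO-nudx19 arrays, replicate 1 was 6.67-fold above replicate 2 for psaA, 2.61-fold for psbD and 1.77-fold for psbB, while for psbC replicate 2 was 1.07-fold above replicate 1. A 4-fold gap of this kind between the KO-nudx19 arrays was seen for 3 of the 65 plastid-encoded probe sets, of which psaA had the widest, and for 0.418% of all tested probe sets. Of the 65, only psaA was lowest on KO-nudx19 replicate 2, and 54 were lowest on wild type replicate 2.

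**Figure D3:**
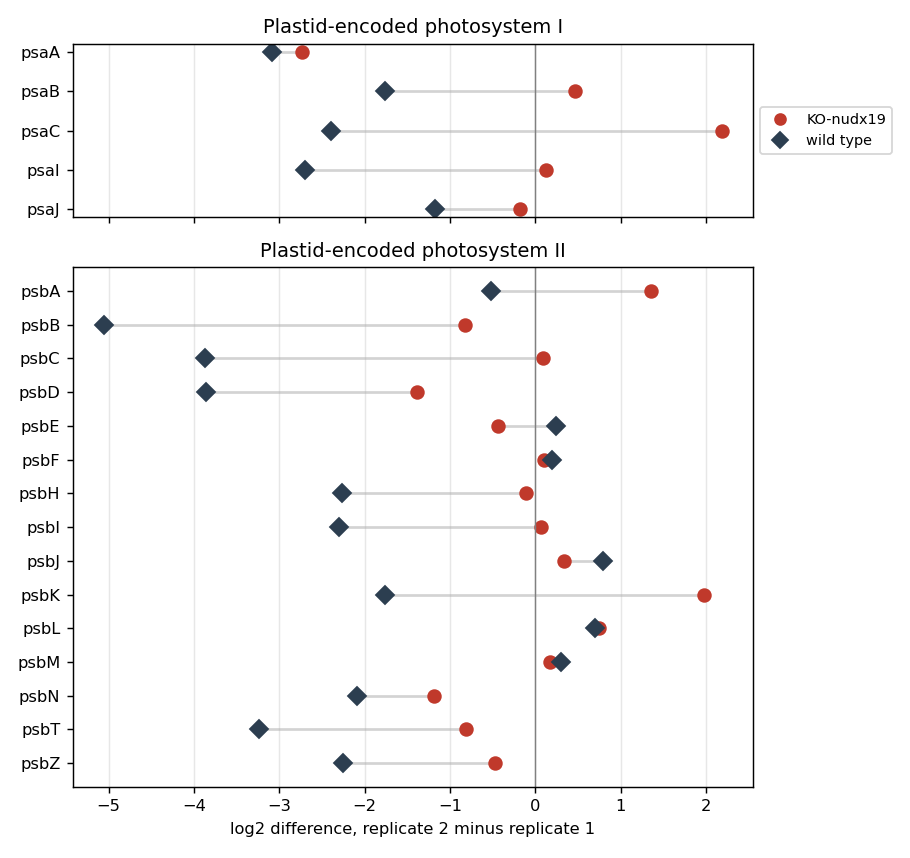
Log2 difference of replicate 2 minus replicate 1 in KO-nudx19 (circles) and wild type (diamonds) for the plastid-encoded genes of photosystem I (top) and photosystem II (bottom), 1 pair of arrays per point. psaA lies far below 0 in both genotypes, at −2.74 and −3.08, while psbC lies at 0.09 in KO-nudx19 and −3.87 in wild type.

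Photosystem I was set beside photosystem II by taking, on each array, log2 of the psaA signal minus the mean of the log2 signals of psbB, psbC and psbD. Multiplying a whole array by a factor cannot move this quantity, and its changes between arrays show unequal change, not which gene changed. It was −2.72 and −4.76 on KO-nudx19 replicates 1 and 2, and −2.50 and −1.32 on wild type replicates 1 and 2. Both KO-nudx19 values lay below both wild-type values, by a narrow margin between the replicate 1 arrays. The mean was −3.74 ± 1.44 in KO-nudx19 leaves and −1.91 ± 0.84 in wild-type leaves (SD, n = 2 each). The difference of −1.83 had a two-sided exact permutation p of 0.33, which is the smallest p that 2 against 2 arrays allow. It was −0.22 between the replicate 1 arrays and −3.44 between the replicate 2 arrays. The value for the replicate 2 arrays rests on dim signals, 37.1 for psaA in KO-nudx19, and 55.6 for psaA and 56.3 for psbB in wild type, which were not shown to be above background. Only psaA stands for photosystem I here, and the other 4 plastid-encoded genes of photosystem I had pooled differences above 0. Over all plastid-encoded genes of each photosystem the median pooled difference was 1.12 for photosystem I and 0.68 for photosystem II.

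Taken singly, psaA minus psbC differed by −2.57 and psaA minus psbD by −1.36 between the genotypes, and both had the same smallest exact permutation p. Against psbB the difference was −1.55 (exact permutation p = 0.67), and the arrays overlapped, since it was 0.39 between the replicate 1 arrays and −3.49 between the replicate 2 arrays. These 3 comparisons share the psaA values and are not independent of the one with the mean. The members also differed among themselves in the shape of their pattern. The root mean square difference of log2 signals over the 4 arrays, after each gene was centred on its own mean, was smallest between psbB and psbD (0.47) and largest between psaA and psbC (1.65).

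**Figure D4:**
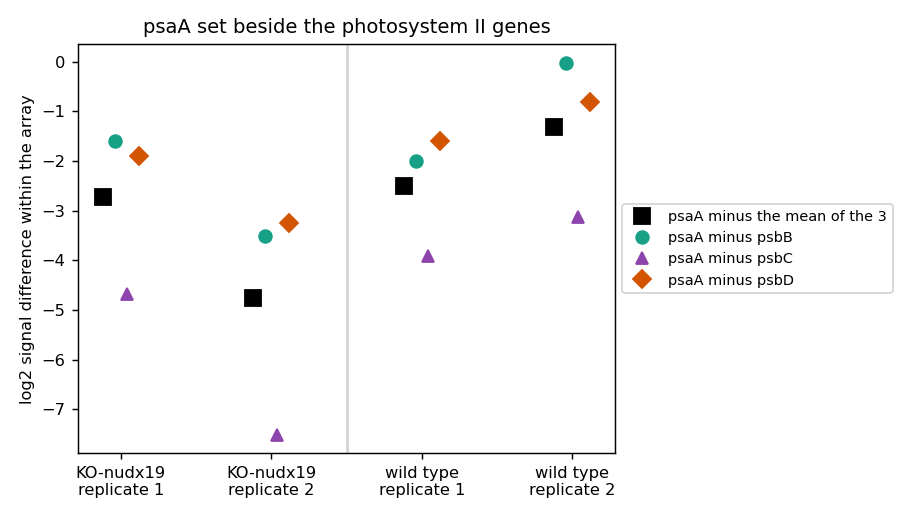
Log2 signal of psaA minus that of psbB, psbC, psbD or the mean of these 3 on each array, 1 point per array and gene, with KO-nudx19 left of wild type. The value for the mean of the 3 is −2.72 and −4.76 in KO-nudx19 and −2.50 and −1.32 in wild type.

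Genes that share a transcription unit with a member did not always share its pattern. Beside psaA, the psaB transcript, for its partner protein in photosystem I, had 11501 and 15876 on KO-nudx19 replicates 1 and 2, and 10369 and 3048 on wild type replicates 1 and 2. The psaB probe set was thus low on wild type replicate 2 and highest on KO-nudx19 replicate 2, the array where psaA was lowest. Its genotypes did not overlap, with a log2 difference of 1.27 (SE 0.58, limma adjusted p = 1.00) against −0.76 for psaA. It was 0.38 without wild type replicate 2 and 2.15 without wild type replicate 1. In the same unit rps14, which encodes a ribosomal protein, was too dim for the test, with 24.7 and 39.3 on KO-nudx19 replicates 1 and 2, and 51.6 and 31.3 on wild type replicates 1 and 2.

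Beside psbD and psbC, psbZ, which encodes a small photosystem II subunit, had 7590 and 5491 on KO-nudx19 replicates 1 and 2, and 6601 and 1385 on wild type replicates 1 and 2. It was lowest on wild type replicate 2, as were psbD and psbC, and differed by 0.20 between the replicate 1 arrays and 1.99 between the replicate 2 arrays. In the unit of psbB, the small subunit genes psbT and psbH had log2 differences of −0.57 and −0.28 between the replicate 1 arrays, against 1.86 and 1.87 between the replicate 2 arrays. Both were lowest on wild type replicate 2 with 28.8 and 470. The cytochrome b6 gene petB had 8893 and 9654 on KO-nudx19 replicates 1 and 2, and 7659 and 6295 on wild type replicates 1 and 2. Its arrays varied far less than those of psbB, and its genotypes did not overlap (log2 difference 0.42, SE 0.24, limma adjusted p = 1.00), although the difference was 0.045 after quantile normalization. The last gene of that unit, petD, which encodes subunit IV of the cytochrome complex, was too dim for the test, at 24.7 to 44.7.

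The other plastid-encoded genes with a psa or psb symbol made up 16 probe sets. Among them the pooled log2 difference in the deposited scaling was positive for 15 and negative for 1 (median 0.74). Of the 16, 0 passed limma's test (89 of all tested probe sets had an unadjusted p under 0.05). In 3 of them, psaB, psaJ and psbM, both KO-nudx19 arrays lay above both wild-type arrays, as they did for 10.5% of all tested probe sets. Without wild type replicate 2 the median of the 16 was 0.14, and leaving out other single arrays it reached up to 1.66. The small photosystem I gene psaJ had 3292 and 2916 on KO-nudx19 replicates 1 and 2, and 2146 and 946 on wild type replicates 1 and 2, a log2 difference of 1.12 that was 0.53 without wild type replicate 2. The photosystem II gene psbM had 13474 and 15185 on KO-nudx19 replicates 1 and 2, and 7669 and 9482 on wild type replicates 1 and 2, a log2 difference of 0.75 (SE 0.25, limma adjusted p = 1.00) that was 0.81 between the replicate 1 arrays and 0.68 between the replicate 2 arrays. After quantile normalization it was 0.31. For psbM, wild type replicate 2 was not the lowest array.

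The D1 gene psbA, whose product pairs with that of psbD, had 1808 and 4619 on KO-nudx19 replicates 1 and 2, and 2155 and 1503 on wild type replicates 1 and 2. It was highest on KO-nudx19 replicate 2, where psbD was lower than on either replicate 1 array. The 4 genes psbE, psbF, psbL and psbJ, which lie next to each other and encode cytochrome b559 and small subunits, had small pooled log2 differences between the genotypes, from 0.02 (psbJ) to 0.17 (psbE), of which psbF and psbJ turned below 0 after quantile normalization and psbJ and psbL after centring on the median. None of these 4 was lowest on wild type replicate 2. Of the 16 genes, 11 were lowest on that array, against 3 of the 4 members and 26.4% of all tested probe sets. In the comparison of replicate numbers, 6 of the 16 were called lower on the replicate 2 arrays and 1 higher, against 4 lower of the 4 members, and 6.32% lower and 4.93% higher of all tested probe sets.

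The 5 plastid-encoded genes of photosystem I had a median log2 difference of 1.12 between the genotypes, with 4 above 0 and psaA alone below. Its subunit genes psaI and psaC had 1.08 and 1.22 but overlapped (−0.26 and 0.02 without wild type replicate 2), with psaC at 57.9 and 264 on KO-nudx19 replicates 1 and 2, and 122 and 23.2 on wild type replicates 1 and 2. The 15 genes of photosystem II had a median of 0.68, with 14 above 0 and psbI below in the deposited scaling. Between the replicate 1 arrays the medians were −0.33 for photosystem I and −0.17 for photosystem II, and between the replicate 2 arrays they were 2.38 and 1.62. Without wild type replicate 2 the medians were 0.02 and −0.03.

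Photosystem genes of the nucleus did not share the low values of the members on wild type replicate 2. Of 39 nuclear photosystem and antenna genes listed, 7 had a named probe set, all were tested and 0 passed. Of the 7, 6 were above 0 and 1 below, with a median log2 difference of 0.39, and 3 did not overlap, all higher in KO-nudx19, as were 10.5% of all tested probe sets. None of the 7 was lowest on wild type replicate 2, and none was highest on wild type replicate 1, where all 4 members had their highest signal. For example PSAE-1, which encodes a nuclear subunit of photosystem I, had 12157 and 17750 on KO-nudx19 replicates 1 and 2, and 8128 and 11740 on wild type replicates 1 and 2. The photosystem II gene PSBW had 8255 and 10588 on KO-nudx19 replicates 1 and 2, and 6132 and 8264 on wild type replicates 1 and 2. Leaving out single arrays, the median of the 7 ranged from 0.18 to 0.59. After quantile normalization it was −0.064, and PSBY, LHCB4.1 and LHCB4.2 turned below 0. The hybridisation controls, bacterial and phage targets added to each sample, were also higher in KO-nudx19, with geometric means of 1054 and 1140 on KO-nudx19 replicates 1 and 2, and 620 and 411 on wild type replicates 1 and 2; their part in these results was not tested.

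**Figure D5:**
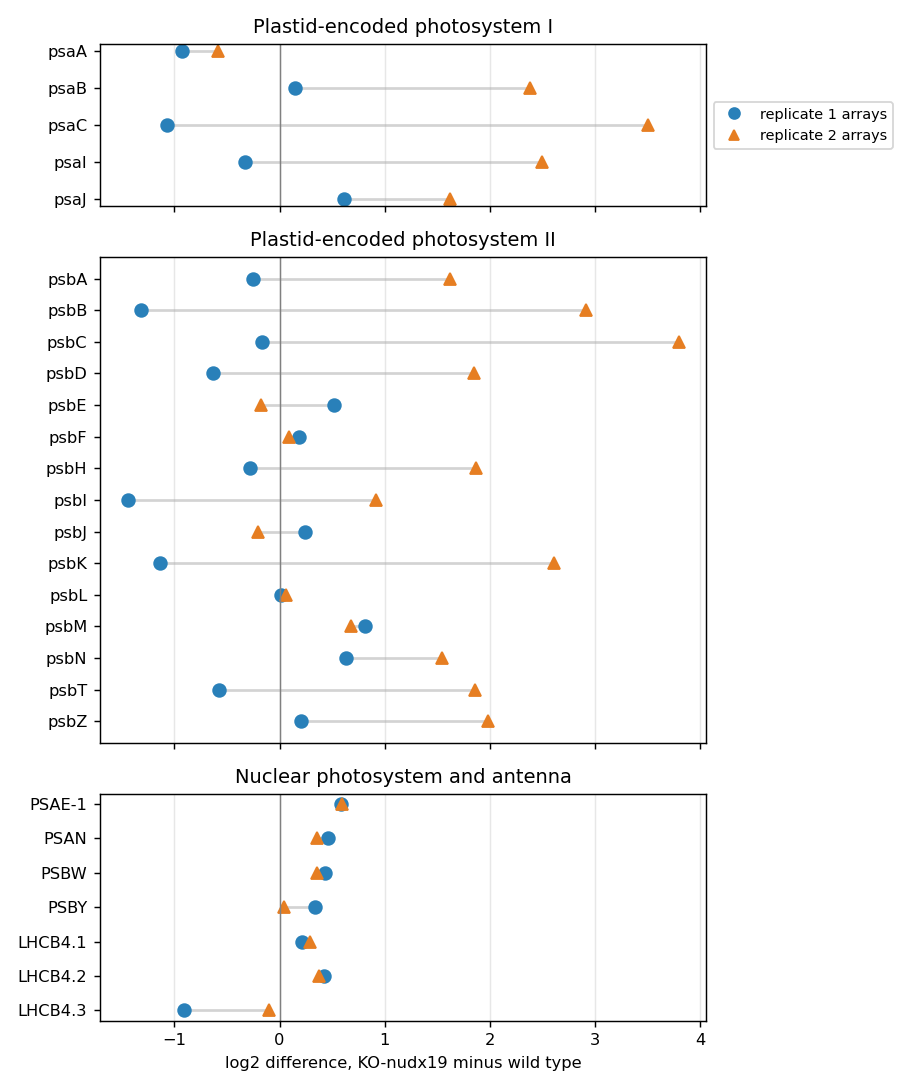
Log2 difference of KO-nudx19 minus wild type between the replicate 1 arrays (circles) and the replicate 2 arrays (triangles) for the plastid-encoded genes of photosystem I and photosystem II and for nuclear photosystem and antenna genes. The members psbB, psbC and psbD lie at 2.91, 3.80 and 1.85 between the replicate 2 arrays and below 0 between the replicate 1 arrays, while 6 of the 7 nuclear genes lie above 0 for both numbers in these signals before quantile normalization.

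Genes that serve the transcription of these plastid genes and the assembly of their products were listed as well. The plastid-encoded RNA polymerase transcribes most photosystem genes, and 3 of its 4 subunit genes were tested, with 0 passing. Of these, rpoA did not overlap, with 3969 and 7137 on KO-nudx19 replicates 1 and 2, and 3312 and 3506 on wild type replicates 1 and 2. By contrast rpoC1 and rpoC2 had log2 differences of −0.45 and −0.27 between the replicate 1 arrays, against 1.03 and 2.59 between the replicate 2 arrays, the same signs as psbB, psbC and psbD. The 2 plastid-encoded assembly factors of photosystem I, ycf3 and ycf4, had −0.93 and −1.02 between the replicate 1 arrays, against 2.71 and 3.63 between the replicate 2 arrays. The nuclear sigma factors, which direct that polymerase to its promoters, had no named probe set. Of 8 nuclear assembly and RNA factors, HCF101 (photosystem I assembly), LPA1 and PAM68 (photosystem II assembly) were tested and had log2 differences of −0.12, −0.37 and −0.24, with 0 passing.

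The genes whose pattern over the 4 arrays was most like that of each member were found by the same root mean square difference among 7356 tested probe sets that name 1 gene. The nearest to psbC were the plastid genes ndhK, for a subunit of the NDH complex (0.17), petL, for a small subunit of the cytochrome complex (0.32), and cemA, for an envelope membrane protein (0.35). The nearest to psbB were the plastid genes ycf3 (0.31), rpl20, for a ribosomal protein (0.32), and ndhH, for an NDH subunit (0.46). The nearest to psbD were the nuclear gene AT1G70620 (0.28) and the plastid genes psbT (0.30) and ycf3 (0.34). All 3 nearest to psaA were nuclear: AT4G00040 (0.16), the asparaginase gene ASPGB1 (0.45) and AT1G67870 (0.46). AT4G00040 had 45.3 and 8.26 on KO-nudx19 replicates 1 and 2, and 93.6 and 13.0 on wild type replicates 1 and 2, and AT1G67870 had 1485 and 213 on KO-nudx19 replicates 1 and 2, and 1306 and 215 on wild type replicates 1 and 2. AT4G00040 is dim, and only its replicate 1 values exceed the mean signal of 38.2 required for testing. Its 8.26, and the 8.21 of ndhH on wild type replicate 2, were raised to the floor of 8.92. With 4 arrays these rankings are descriptions only. The pattern of psaA parts the arrays mainly by replicate number, while that of psbC rests largely on the low signal of wild type replicate 2. The signals of psbB and psbD were lower on both replicate 2 arrays too. They were also spread widely between wild type replicate 1, the highest, and wild type replicate 2, the lowest.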

How the data were processed

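Leaf RNA was hybridised to 1 Affymetrix ATH1 array per sample. The deposited values are linear signal intensities, 1 per probe set and array, made with GCOS per the submitters' processing notes (version not given). The sources used here do not give the background correction, the probe summary or the scaling target. Trimmed by 2% at either end, the mean signal was 200 on each array.

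Groups and replicate numbers came from the sample titles. Signals were raised to a floor of 8.92, the 20th percentile over all arrays, before log2 was taken. Tests covered 13648 probe sets, those that were none of the 64 controls and had a mean signal of at least 38.2, the 40th percentile. Genotypes were compared with limma 3.58.1 in R 4.3.3 (lmFit, eBayes with a trend, Benjamini-Hochberg over all 13648, threshold 0.05). The replicate numbers were compared in the same way with genotype as a term. The code was tested on simulated data. Exact permutation tests used scipy 1.17.1 and figures matplotlib 3.10.9.

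Of 22810 probe sets, 13513 name 1 gene in the platform annotation and 13436 of these matched RefSeq (TAIR10.1). The values name no genome build, so no coordinates are given. All members were named, with every tested gene of their transcription units, and up to 4 genes of each other list, those that passed or else did not overlap; other genes named were chosen after their values were seen, as were the 4-fold limit and the counts of highest and lowest arrays. The members and lists were chosen with earlier results of these data known. Alternatives were quantile normalization, centring on the median, other floors, a pseudocount, other filters, eBayes without a trend or with robust fitting, the replicate number as a block, and leaving out each array.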

Additional observations from a re-analysis of the deposited data

Results flagged for a closer look

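The difference between KO-nudx19 and wild type had opposite signs between the replicate 1 arrays and between the replicate 2 arrays for 3 members. The log2 difference between the replicate 2 arrays minus that between the replicate 1 arrays was 4.23 for psbB, 3.97 for psbC and 2.48 for psbD. With 1 array per genotype and number, this contrast was not tested, and opposite signs were seen for 50.8% of all tested probe sets. For psaA both differences were below 0 and 0.35 apart.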

How the results depend on the processing

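No paired plants or batches are named in the labels, and the shared numbers give only 2 pairs. With the replicate block limma called 2 probe sets between the genotypes, neither of them a member, against 0 without it. With the block the SE was 0.25 for psaA, 0.53 for psbB, 0.48 for psbC and 0.36 for psbD. These SEs rest largely on a spread shared over probe sets. They understate how far the 2 numbers disagreed for psbB, psbC and psbD, as for psbB with −1.32 and 2.91. The limma adjusted p with the block was 0.548 for psaA, 0.999 for psbB, 0.292 for psbC and 0.999 for psbD. Leaving out single arrays, the count of probe sets called between the genotypes ranged from 0 to 10, the 10 being without wild type replicate 1. The count between replicate numbers was 1535, and it was 0 with no filter (2705 at an unadjusted p under 0.05) and 1012 with the filter at the 60th percentile. It ranged from 1093 to 1861 under the other settings that keep all arrays, and leaving out an array allowed no test of it. Centring on the median called 740 higher and 688 lower on the replicate 2 arrays, against 673 higher and 862 lower.

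No member passed between the genotypes under any alternative, except psbC without wild type replicate 1. Leaving out single arrays, the genotype difference ranged from −2.30 to 0.79 for psaA, −1.73 to 3.32 for psbB, −0.12 to 3.75 for psbC and −1.32 to 2.54 for psbD. In the same way psaI ranged from −0.26 to 2.43, psbE from −0.052 to 0.39, psbH from −0.34 to 1.92, psbI from −1.41 to 0.88, psbJ from −0.38 to 0.41, psbK from −0.25 to 1.73, psbL from −0.33 to 0.41, psbT from −0.98 to 2.26, psbZ from −0.032 to 2.22, PSBY from −0.069 to 0.46 and LHCB4.3 from −1.27 to 0.26. After quantile normalization psbF stood at −0.079, psbJ at −0.080, PSBY at −0.27, LHCB4.1 at −0.23 and LHCB4.2 at −0.064, all above 0 in the deposited scaling. Centred on the median, psbJ was −0.023 and psbL −0.0011. The difference between replicate numbers ranged from −3.87 to 0.092 for psbC, with 0.092 within KO-nudx19. It passed in 10 of 11 settings for psaA, 9 for psbB, 9 for psbD and 7 for psbC, and the highest adjusted p was 0.410, 0.604, 0.486 and 0.706 in that order. For psaA minus the mean of the photosystem II members, every alternative gave a value below 0, from −2.84 to −0.81 leaving out single arrays. Both KO-nudx19 values lay below both wild-type values, so leaving out an array could not turn this sign. A factor applied to a whole array could not move it either. The constant sign thus adds no support, and the difference was −0.22 between the replicate 1 arrays. Under each scaling, floor or pseudocount, at least 2 of the 3 genes most like each member remained. The cause of these changes was not tested.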
